A study of Mus musculus with 24 samples.

Results

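Bone marrow-derived macrophages labelled as Pparg knockout were compared before and after a second exposure to IL-4, a cytokine that drives macrophages into the alternatively activated state. Both groups had received IL-4 for 24 h, had been washed, and had been kept for 24 h in differentiation medium. The washed-out group was collected at that point, and the restimulated group after another 3 h of IL-4. Levels are given as CPM, reads of a gene scaled to a size assigned to its library. The deposited columns summed to 1022961 after washout and 1001082 after restimulation, so this size was not the plain total of reads. How it was set was not tested. Genes entered when 1 of the groups, or both, had a deposited mean no lower than 1 CPM. This gave 11282 of the 23420 genes listed and 4 of the 24 samples of the series. Just inside this limit lay Asgr2 at 1.0035 CPM, and just outside it Slc4a3 at 0.9996 CPM.

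The cells came from marrow of male C57BL/6 mice aged 3 months and were differentiated for 6 days with M-CSF, per the labels' protocols, which print the IL-4 dose as 20 ng/ul. Beside the 2 groups of the comparison, 4 further groups were compared with them. A pair of knockout groups had no pretreatment and were collected unexposed or after a first 3 h of IL-4. The other pair held wild-type cells, washed out or restimulated like the knockout cells. Unexposed and first-exposed wild-type cells entered the fit only, for the estimate of the spread. Each group held 2 samples. How the knockout was made, in which cells it acts and whether animals were pooled are not given in the sources used here, and no label ties the samples to animals or cultures of their own. The p-values therefore measure only the spread between these samples, which may be technical.

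IL-4 binds a receptor that contains Il4ra, and the JAK kinases attached to it phosphorylate STAT6, which enters the nucleus and switches on genes such as Arg1, Mrc1, Retnla and Chi3l3. PPARg, encoded by Pparg, is a nuclear receptor for fatty acids whose gene is itself an IL-4 target in macrophages, and it is known for its control of lipid uptake and storage. SOCS proteins are made in response to the same signal and dampen it. A washout followed by a second exposure shows how cells that have already met IL-4 respond to it again.

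The authors deposited 1 averaged column per group. Each value is the mean of whole reads in 2 libraries, each with its own worth of 1 read, and it was separated into the values of both libraries, called the deeper and the shallower by their read totals. The washed-out libraries held 8530733 and 7278489 reads in genes, and the restimulated ones 8612758 and 7517144. A count of 3 reads corresponded to 0.349 to 0.423 CPM in these 4 libraries. Of the values above 0, 18 in the washed-out and 27 in the restimulated column could not be separated, all of them among the highest, and their spread is unknown. The libraries of a group correlated across genes at r = 0.992 after washout and 0.995 after restimulation, yet differed beyond counting noise (chi-square per degree of freedom 4.96 and 1.99). All 8 knockout libraries showed low values for genes with near-identical copies, as if shared reads had not been counted, and 374 of the tested genes were marked as sensitive to this. Lyz2 is not among them: its washed-out wild-type value could not be separated, and it was not marked for sequence shared with other genes either. It stood at 39.2 CPM in washed-out knockout and at a mean of 27042 CPM in washed-out wild-type cells. The cause of this gap was not tested. The kit is not stated to mark strand, so reads of overlapping and antisense genes cannot be told apart.

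Pparg itself was measured at 25.8 and 27.3 CPM in the washed-out libraries and at 36.3 and 45.5 CPM in the restimulated ones. The groups did not overlap, and the log2 difference, on the log2(CPM + 1) scale used throughout, was 0.59 ± 0.13 (SE, n = 2 libraries per group; limma adjusted p = 0.0021). In the knockout cells without pretreatment it stood at 22.3 and 19.9 CPM, and after first exposure at 29.2 and 26.0 CPM. Wild-type cells showed 19.0 and 22.6 CPM after washout and 34.8 and 33.3 CPM after restimulation. The libraries labelled knockout were thus not below those labelled wild type. Read counts over the whole gene do not test a deletion of part of it.

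The macrophage label was checked with 24 marker genes, of which Spi1 was not analysed here and 22 reached 1 CPM. Their summed level was 24852 and 24389 CPM after washout and 23495 and 23466 CPM after restimulation, led by Ctss and Csf1r. Among these markers 13 fell and 2 rose, with Cx3cr1, Ccr2 and Mertk among those that fell. Over all genes tested, 16.1% fell and 18.9% rose. Fibroblast markers summed to 6.70 and 15.6 CPM and then to 8.03 and 7.18 CPM, with Dcn and Lum at 0, and of 4 that were tested Postn rose. Granulocyte markers summed to 146 and 136 CPM and then to 253 and 262 CPM. Most of that was Csf3r, the G-CSF receptor, which rose from 94.1 to 219 CPM on average, and of 8 tested 3 rose and 2 fell. Lymphocyte markers summed to 19.5 and 17.6 CPM and then to 11.5 and 12.2 CPM, most of it Cd4, which fell, with Cd3e, Cd3g, Cd8a, Cd79a, Ncr1 and Klrb1c at 0. Mast cell and basophil markers stayed under 1 CPM in every library, with Mcpt8, Kit, Fcer1a and Ms4a2 among those at 0. Dendritic cell markers summed to 395 and 425 CPM and then to 495 and 514 CPM, mostly Itgax, and 2 of the 4 tested rose, Batf3 and Zbtb46. Of the erythroid and megakaryocyte list only Pf4, which macrophages also make, was above 1 CPM, and it did not pass the test. The part of these cells in the results was not tested. In bulk RNA, more cells of a type and more RNA per cell cannot be told apart.

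Restimulation changed the RNA of many genes, with Rasgrp1, Pdcd1lg2, Socs1 and Arg1 at the top of the rises and Thbs1, Nfkbiz, Gpr162 and Cx3cr1 at the far end of the falls. By limma, 3956 of the 11282 genes (35.1%) passed an adjusted p of 0.05, 2135 of them higher (18.9%) and 1821 lower (16.1%), and 4908 (43.5%) had an unadjusted p under 0.05. Of the 3956, 2146 moved by less than 1.5-fold. Beyond 2-fold lay 397 genes (3.52%) on the higher and 253 (2.24%) on the lower side, of which 396 and 250 passed the test. The libraries of the groups did not overlap in 7496 genes (66.4%), and the median log2 difference over all genes was 0.01. Centring each library on its median gene moved the whole distribution by -0.02 and the share of calls that were higher from 54.0% to 50.5%. A fit in which all groups had the same weight called 1205 genes higher and 884 lower.

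**Figure D1:**
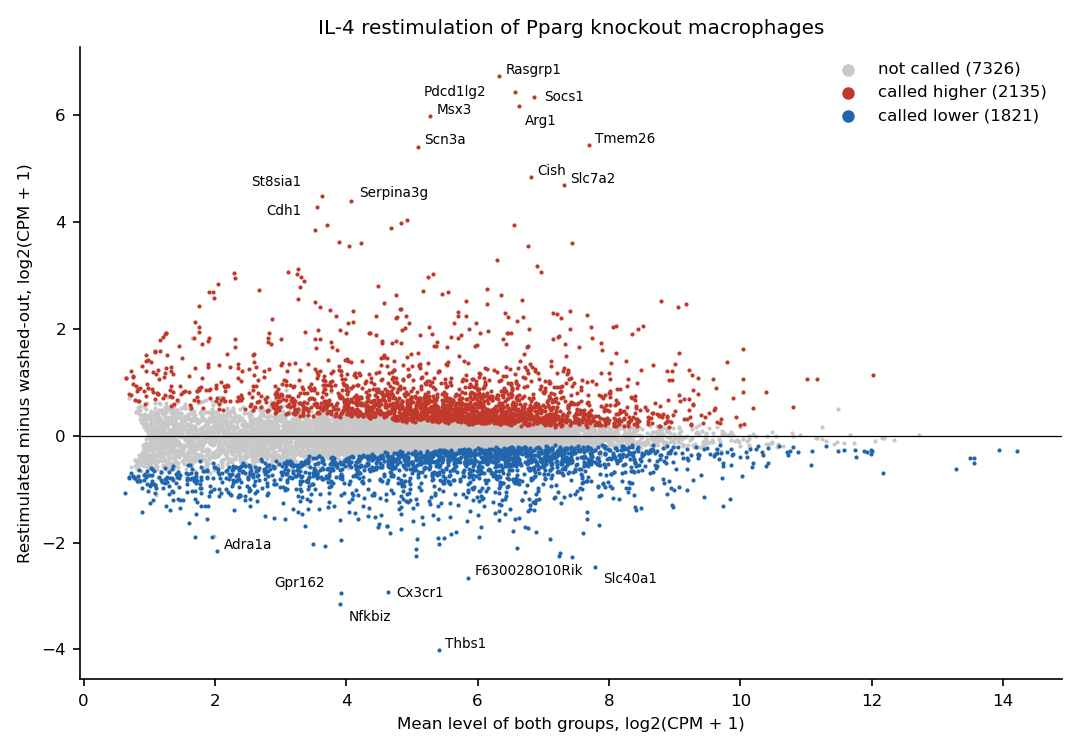
Log2 difference of restimulated minus washed-out knockout libraries (vertical) against the mean level of both groups (horizontal, log2(CPM + 1)), 1 point per gene, with 2135 genes called higher in red, 1821 called lower in blue and 7326 not called in grey. The largest rises reach above 6 on the log2 scale, while a single gene, Thbs1, lies near -4.

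The 12 genes with the largest rises, chosen by the difference of the deposited means as log2(CPM + 1) among genes that passed the test, whose libraries did not overlap and that are not sensitive to counting, started from deposited means between 0.0598 CPM for St8sia1 and 10.7 CPM for Slc7a2. Rasgrp1, which activates Ras by exchanging its nucleotide, stood at 0.718 and 0.282 CPM in the washed-out libraries and at 164 and 152 CPM after restimulation. Its log2 difference was 6.74 ± 0.15 (SE; limma adjusted p = 1.7e-15). Pdcd1lg2, the PD-1 ligand PD-L2, went from 1.08 and 1.27 CPM to 183 and 190 CPM, a log2 difference of 6.43 ± 0.17 (limma adjusted p = 1.5e-14). Both genes were at low levels in both washed-out libraries and above 150 CPM in both restimulated ones. A gene under 1 CPM on average after washout met the limit only through the restimulated group, so its direction was fixed by the choice. Among the 12 these were Rasgrp1, Scn3a, Serpina3g, Msx3, St8sia1 and Cdh1, whose rises are descriptions only. The same holds for other genes named here, such as Postn, Zbtb46, Cxcr2 and Socs2.

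Socs1, the inhibitor that blocks JAK kinases, rose from 1.56 and 2.11 CPM to 232 and 223 CPM (log2 difference 6.34 ± 0.14, limma adjusted p = 1.7e-15). Cish, of the same family, rose from 6.82 and 6.199 CPM to 213 and 219 CPM (4.85 ± 0.16). Arg1, arginase 1, was uneven after washout at 0.837 and 2.96 CPM, and reached 208 and 181 CPM (6.18 ± 0.24). The transporter that brings arginine into the cell, Slc7a2, rose from 10.8 and 10.7 CPM to 299 and 310 CPM (4.70 ± 0.10). Inhibitors of the signal and an enzyme and transporter for arginine thus stood among the 12 largest rises.

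Tmem26, a membrane protein, rose from 8.73 and 8.03 CPM to 415 and 396 CPM (log2 difference 5.44 ± 0.14), the highest level of the 12. Scn3a, a subunit of a voltage-gated sodium channel, rose from 0.718 and 0.423 CPM to 64.4 and 67.3 CPM (5.42 ± 0.16). Serpina3g, a serine protease inhibitor of a multigene cluster, rose from 0.479 and 0.564 CPM to 32.1 and 29.9 CPM (4.40 ± 0.22). The groups of these 3 genes were apart by far more than the libraries of a group, though genes with overlapping groups could not be chosen.

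Msx3, a homeobox factor, went from 0.120 and 0.282 CPM to 80.3 and 70.8 CPM. St8sia1, a sialyltransferase that makes a ganglioside, went from 0.120 and 0 CPM to 25.1 and 20.5 CPM. Cdh1, E-cadherin, went from 0 and 0.282 CPM to 22.7 and 19.8 CPM. The washed-out level of these 3 genes is at most 2 reads per library, so their fitted log2 differences of 5.99, 4.49 and 4.29 depend on the CPM added before the logarithm.

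**Figure D2:**
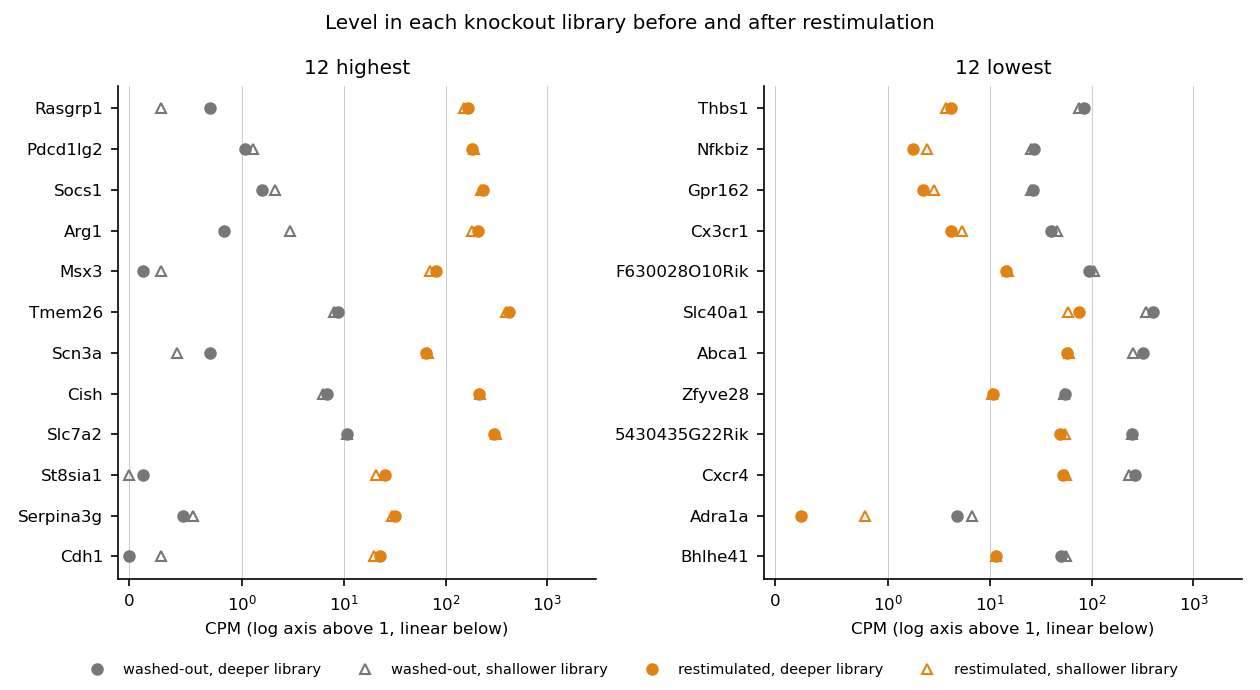
CPM of each knockout library (horizontal, log axis above 1 and linear below) for the 12 genes with the largest rises and the 12 with the largest falls, with washed-out libraries in grey, restimulated ones in orange, filled circles for the deeper and open triangles for the shallower library. The grey and orange symbols are apart in all 24 genes because only genes whose libraries did not overlap were chosen. Tmem26 reaches 415 CPM, and Adra1a lies under 1 CPM in both restimulated libraries.

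The promoters of these genes were searched for the pairs of half-sites that STAT proteins bind, TTC and GAA with 4 bases between them, the spacing that STAT6 prefers, and TTC and GAA with 3 bases between them, the spacing of other STATs. Either pattern reads the same on both strands, and the 2 do not overlap in the windows printed. The windows run from 250 bases before to 50 after the annotated start, from RefSeq on GRCm38.p6, and positions are counted from the start, with no 0. Of the 12 genes with the largest rises, 8 were matched to a window, and 5 of these held a motif. They are printed to show where the motifs lie, in capitals, 5′ to 3′ on the strand of the gene.
Pdcd1lg2, chr19:29410669-29410968, plus strand: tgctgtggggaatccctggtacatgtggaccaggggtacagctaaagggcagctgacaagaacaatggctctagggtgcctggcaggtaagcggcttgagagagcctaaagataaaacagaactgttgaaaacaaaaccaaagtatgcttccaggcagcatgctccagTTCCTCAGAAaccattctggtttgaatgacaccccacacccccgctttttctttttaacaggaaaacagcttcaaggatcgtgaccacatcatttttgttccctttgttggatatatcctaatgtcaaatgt
Tmem26, chr10:68723496-68723795, plus strand: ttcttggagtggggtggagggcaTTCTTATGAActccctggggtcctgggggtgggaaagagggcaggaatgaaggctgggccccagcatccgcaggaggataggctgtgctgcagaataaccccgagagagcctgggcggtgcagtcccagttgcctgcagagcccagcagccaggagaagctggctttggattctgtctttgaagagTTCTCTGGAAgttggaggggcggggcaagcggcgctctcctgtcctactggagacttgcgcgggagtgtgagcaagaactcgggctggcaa
Cish, chr9:107296409-107296708, plus strand: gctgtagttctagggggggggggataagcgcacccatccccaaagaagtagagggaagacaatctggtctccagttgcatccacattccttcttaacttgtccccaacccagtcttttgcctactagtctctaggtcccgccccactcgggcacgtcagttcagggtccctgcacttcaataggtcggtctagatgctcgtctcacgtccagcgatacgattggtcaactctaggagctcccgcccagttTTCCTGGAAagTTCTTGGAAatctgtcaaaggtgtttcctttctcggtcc
Serpina3g, chr12:104235897-104236196, plus strand: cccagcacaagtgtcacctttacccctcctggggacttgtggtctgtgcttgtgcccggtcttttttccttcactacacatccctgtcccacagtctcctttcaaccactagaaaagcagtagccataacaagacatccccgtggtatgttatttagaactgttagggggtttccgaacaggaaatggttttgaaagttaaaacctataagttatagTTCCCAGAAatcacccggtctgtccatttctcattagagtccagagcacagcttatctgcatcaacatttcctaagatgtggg
Rasgrp1, chr2:117342828-117343127, minus strand: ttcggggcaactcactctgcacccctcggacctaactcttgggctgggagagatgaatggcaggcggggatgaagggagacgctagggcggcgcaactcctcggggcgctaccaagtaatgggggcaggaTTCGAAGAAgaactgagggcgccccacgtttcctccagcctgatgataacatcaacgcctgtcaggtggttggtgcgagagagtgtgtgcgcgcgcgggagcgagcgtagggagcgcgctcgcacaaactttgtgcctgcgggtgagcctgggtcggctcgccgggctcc

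The spacing of 4 bases occurs in the Pdcd1lg2 window at -82 and in that of Tmem26 at both -227 and -41. The spacing of 3 bases occurs at 1 and 12 in Cish, at -33 in Serpina3g and at -120 in Rasgrp1. Among the 9093 tested genes with a window, 6.72% held the spacing of 4 and 8.19% that of 3. The shares were 8.38% and 8.73% among 1730 genes that rose, and 6.08% and 8.04% among 1431 that fell. For the 306 matched genes that rose beyond 2-fold, the spacing of 4 was found in 10.8% and that of 3 in 7.84%. For the 185 that fell beyond 2-fold the shares were 7.03% and 8.65%. Of all 27025 genes with a window, tested or not, 8.01% held the spacing of 4 and 9.55% that of 3. Counted by window, the shares were 6.95% and 8.3% of 32851. Of the 12 genes with the largest falls 6 were matched, and in those windows neither pattern was found. These shares are descriptions of letters in short windows, with no test, and a match is not a binding site.

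The largest fall was that of Thbs1, thrombospondin 1, a matrix glycoprotein that platelets and macrophages secrete. It stood at 83.7 and 74.8 CPM after washout and at 4.19 and 3.72 CPM after restimulation (log2 difference -4.02 ± 0.45, limma adjusted p = 2.2e-06). Fibroblasts make this transcript as well. The fibroblast markers of the same libraries summed to 6.70 and 15.6 CPM and then to 8.03 and 7.18 CPM, and their part in the result was not tested.

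Several of the other large falls were in receptors and regulators of inflammation. Nfkbiz, a regulator of NF-kB target genes, went from 27.0 and 25.1 CPM to 1.75 and 2.39 CPM (log2 difference -3.15 ± 0.17, limma adjusted p = 1e-10). Cx3cr1, the fractalkine receptor, went from 40.0 and 45.6 CPM to 4.19 and 5.32 CPM (-2.93 ± 0.16). Cxcr4, the receptor that holds cells in the marrow, went from 268 and 231 CPM to 52.1 and 55.3 CPM (-2.19 ± 0.09). In each of these genes both restimulated libraries lay below both washed-out ones.

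Exporters of iron and cholesterol fell too. Slc40a1, ferroportin, the only known iron exporter of the cell, fell from 400 and 341 CPM to 75.6 and 59.2 CPM (log2 difference -2.45 ± 0.15, limma adjusted p = 5.9e-10). Abca1, which loads cholesterol onto apolipoproteins, fell from 318 and 254.6 CPM to 57.8 and 59.3 CPM (-2.26 ± 0.17). Bhlhe41, a repressor of the circadian clock, fell from 50.01 and 56.5 CPM to 11.4 and 11.4 CPM (-2.12 ± 0.17). The washed-out libraries of these 3 genes, also chosen for groups that do not overlap, were somewhat uneven for Slc40a1 and Abca1.

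Gpr162, an orphan receptor, fell by 2.94 on the log2 scale, F630028O10Rik by 2.65, Zfyve28 by 2.25 and 5430435G22Rik by 2.25. Adra1a, an adrenergic receptor, went from 4.79 and 6.62 CPM to 0.233 and 0.798 CPM (-2.16 ± 0.29, limma adjusted p = 1.5e-05). With equal group weights its adjusted p was 0.065, and it is the only one of the 24 genes that lost its call in any alternative.

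Of the 34 listed markers of the IL-4 and STAT6 response, 31 reached 1 CPM, 27 of these rose and none fell. Their median log2 difference was 2.28, against 0.01 over all genes. The direction of Rasgrp1 and Cdh1, under 1 CPM after washout, was fixed by the choice. Over all genes tested 18.9% rose and 16.1% fell, the shares to set beside the counts of this and the following lists. Beside Arg1, Pdcd1lg2, Socs1, Cish, Tmem26, Slc7a2, Rasgrp1 and Cdh1 the rises included Ccl24, an eosinophil attractant, from 2.15 and 2.82 CPM to 52.4 and 60.5 CPM (4.05 ± 0.23, limma adjusted p = 2.2e-10). Flt1, a VEGF receptor, rose by 3.99 ± 0.19, the transcription factor Irf4 by 3.18 ± 0.09, Egr2 by 3.08 ± 0.09 and the growth factor Hbegf by 3.02 ± 0.20. The eosinophil-type ribonuclease Ear11 rose from 5.38 and 3.94 CPM to 37.9 and 38.7 CPM (2.81 ± 0.21). Clec7a, the beta-glucan receptor dectin-1, rose from 189 and 163 CPM to 985 and 958 CPM (2.46 ± 0.09). The libraries of the groups did not overlap in any of these genes, which held for 66.4% of all genes tested.

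The rest of the marker list rose by less. Mgl2 rose by 2.28, Batf3 by 2.23, Fn1 by 2.01, the transferrin receptor Tfrc by 1.92, Klf4 by 1.90, Clec10a by 1.72, Itgb3 by 1.41, Mrc1 by 1.13, Matk by 0.81, Tgm2 by 0.76 and both Chi3l3 and Ptgs1 by 0.70. Mrc1 was at 2792 and 2439 CPM after washout and at a mean of 5727 CPM after restimulation, where its libraries could not be separated. Fn1 and Matk lost their calls with equal group weights, at adjusted p of 0.11 and 0.065. Retnla, which encodes the secreted protein RELMalpha, did not pass: it was at 2580 and 2188 CPM after washout and at a mean of 3377 CPM after restimulation, where the libraries could not be separated (log2 difference 0.51 ± 0.28, limma adjusted p = 0.19). Chi3l4 (0.423 to 3.85 CPM on average, adjusted p = 0.059), a near-identical copy of Chi3l3 whose reads may be split, Ocstamp (adjusted p = 0.54) and Il27ra (adjusted p = 0.89) did not pass either.

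**Figure D3:**
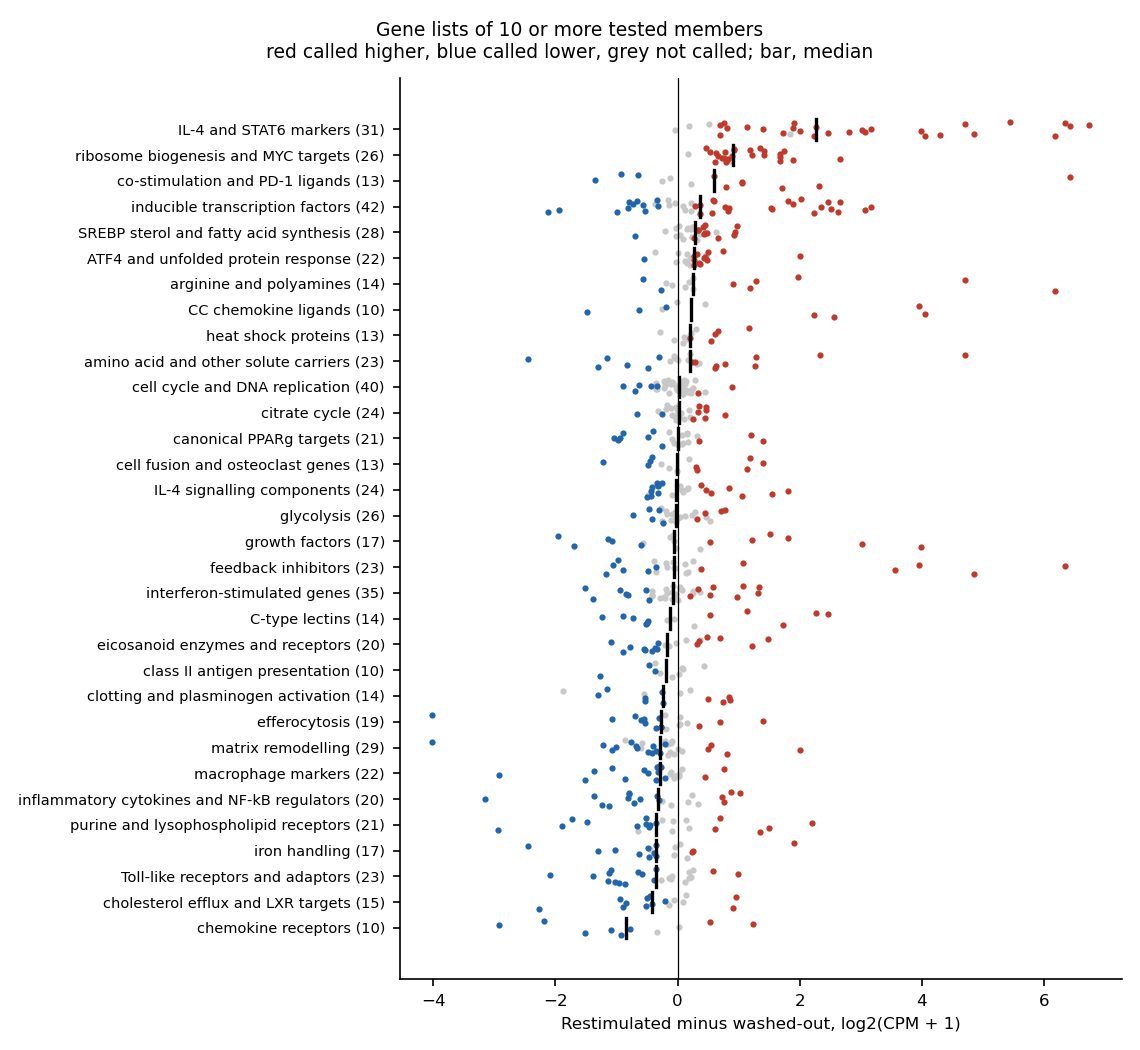
Log2 difference of every tested member of the gene lists with 10 or more tested members (points; red called higher, blue called lower, grey not called), 1 row per list with the number tested in brackets, and the median as a black bar. The medians run from 2.28 for the IL-4 and STAT6 markers and 0.91 for ribosome biogenesis down to -0.85 for the chemokine receptors.

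Components of the IL-4 pathway itself moved in both directions. Of 24 tested, 7 rose and 10 fell, with a median log2 difference of -0.03. The receptor chain Il4ra rose from 259 and 284 CPM to 802 and 790 CPM (1.55 ± 0.07, limma adjusted p = 2.8e-11). The kinase Jak2 rose from 43.3 and 30.01 CPM to 130 and 128 CPM (1.82 ± 0.11), the adaptor Dok2 by 1.06 ± 0.10 and the phosphatase Ptpn2 by 0.84 ± 0.12. Stat6 itself fell from 333 and 326 CPM to 263 and 257 CPM (-0.34 ± 0.06, limma adjusted p = 0.00048), Jak3 by 0.43 ± 0.11, the phosphatase Ptpn6 by 0.42 ± 0.06 and the adaptor Dok1 by 0.50 ± 0.09. Among feedback inhibitors 6 rose and 6 fell of 23 tested (median -0.06): Socs2 rose from 0.359 and 0.845 CPM to 25.02 and 21.9 CPM (3.95 ± 0.19) and the MAP kinase phosphatase Dusp4 from 16.2 to 200.1 CPM on average (3.56 ± 0.12). Dusp1, which inactivates p38 and JNK, fell by 1.18 ± 0.14. The SOCS family itself went both ways: Socs1, Socs2, Cish and Socs5 rose, Socs3 fell from 8.45 to 3.52 CPM on average (-1.06 ± 0.18), and Socs4, Socs6 and Socs7 did not pass.

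Of 42 tested transcription factors that answer quickly to stimuli, 22 rose and 11 fell (median 0.37). Myc rose from 8.02 and 14.8 CPM to 72.2 and 76.2 CPM (2.66 ± 0.16, limma adjusted p = 6.6e-10) and Bhlhe40, a relative of the falling Bhlhe41, from 21.1 and 22.5 CPM to 143 and 136 CPM (2.63 ± 0.10). Fos, an early response factor of the AP-1 family, fell from 51.3 and 54.1 CPM to 13.7 and 12.4 CPM (-1.94 ± 0.15). Cebpb fell by 0.99 ± 0.12, Ier2 by 0.81 ± 0.12, Nr4a1 by 0.79 ± 0.26 and Klf6 by 0.73 ± 0.09, and Junb did not pass (adjusted p = 0.53). Of 26 genes for ribosome biogenesis and other MYC targets, Myc included, 24 rose and none fell, with a median log2 difference of 0.91. Gnl3, nucleostemin, rose by 1.89 ± 0.12, Ppan by 1.74 ± 0.12 and Nolc1 by 1.68 ± 0.09, all factors of the nucleolus. Npm1 (75.3 to 85.3 CPM on average, adjusted p = 0.13) and Fbl (5.06 to 9.83 CPM, adjusted p = 0.058) did not pass, and Fbl is among the genes sensitive to counting.

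Protein folding in the endoplasmic reticulum and amino acid supply also moved. Of 22 genes of the ATF4 and unfolded protein response 12 rose and 1 fell (median 0.28), led by the disulfide isomerase Pdia4, from 145 and 133 CPM to 554 and 563 CPM (2.00 ± 0.07, limma adjusted p = 6.6e-13). Xbp1 rose by 0.75 ± 0.08, and Herpud1 was the 1 that fell, by 0.55 ± 0.08. Heat shock proteins showed 5 rises and no fall of 13 (median 0.21), with Hsph1 at 1.18 ± 0.11. Arginine and polyamine genes showed 6 rises and 2 falls of 14 (median 0.25): beside Arg1 and Slc7a2 the spermidine synthase Srm rose by 1.98 ± 0.17 and the cationic transporter Slc7a1 by 1.28 ± 0.13. Solute carriers showed 9 rises and 6 falls of 23 (median 0.21), with Slc7a5, the large neutral amino acid transporter, at 2.33 ± 0.16 and Slc16a10, an aromatic amino acid transporter, at -1.31 ± 0.11.

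Co-stimulatory molecules and PD-1 ligands showed 7 rises and 3 falls of 13 (median 0.60). Cd40 rose from 15.4 and 17.5 CPM to 88.7 and 82.9 CPM (2.32 ± 0.11, limma adjusted p = 3.1e-11) and Cd274, PD-L1, from 82.5 and 66.9 CPM to 238 and 254 CPM (1.71 ± 0.10). Icosl, the ligand of ICOS, fell by 1.35 ± 0.11. Of 10 genes for class II antigen presentation 3 fell and none rose (median -0.19), the largest fall being that of Ciita, their master activator, from 71.8 and 62.1 CPM to 27.4 and 27.0 CPM (-1.27 ± 0.19). H2-Eb1 and H2-Ab1 fell by 0.47 and 0.36, the latter at an adjusted p of 0.049.

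Of 23 Toll-like receptors and adaptors, which sense microbial products, 12 fell and 2 rose (median -0.36). Tlr2 fell from 170 and 144 CPM to 37.7 and 34.2 CPM (-2.09 ± 0.09, limma adjusted p = 9.1e-12), Tlr13 by 1.38 ± 0.10, Irak3 by 1.14 ± 0.09 and Tlr5 by 1.13 ± 0.20. Inflammatory cytokines and NF-kB regulators gave 11 falls and 4 rises of 20 (median -0.32). Tnf fell from 14.4 and 18.5 CPM to 5.12 and 6.25 CPM (-1.38 ± 0.18), the chemokine Cxcl2 by 1.24 ± 0.26 and Bcl3 by 1.13 ± 0.15. Interferon-stimulated genes showed no common direction, 8 rising and 7 falling of 35 (near the 18.9% and 16.1% of all genes; median -0.07). Usp18 and Irf7 rose by 1.33 ± 0.14 and 1.31 ± 0.10, while Rsad2 and Cxcl10 fell by 1.51 ± 0.20 and 1.39 ± 0.36.

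Chemokine receptors had the lowest median of all lists, -0.85, with 6 falls and 2 rises of 10. Beside Cx3cr1 and Cxcr4, the monocyte receptor Ccr2 fell from 72.9 and 66.6 CPM to 24.3 and 23.1 CPM (-1.52 ± 0.11, limma adjusted p = 5.8e-09) and Ccr1 fell by 0.92 ± 0.09. Cxcr2 rose, at 2.07 CPM on average after restimulation. Among CC chemokine ligands 4 rose and 3 fell of 10 (median 0.22). The ligands of Ccr2, Ccl7, Ccl12 and Ccl2, rose by 3.95 ± 0.12, 2.56 ± 0.18 and 2.23 ± 0.11, whereas Ccl3 and Ccl4 fell from 33.1 to 11.2 CPM and from 15.6 to 9.81 CPM on average.

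C-type lectins showed 5 rises, among them Clec7a, Mgl2, Clec10a and Mrc1, and 6 falls of 14 (median -0.12), Clec4e, a receptor for mycobacterial glycolipid, falling by 1.23 ± 0.18. Genes for the uptake of dying cells showed 10 falls and 3 rises of 19 (median -0.27). Mertk, a receptor for bridged phosphatidylserine, fell from 115 and 101 CPM to 52.1 and 49.1 CPM (-1.08 ± 0.12, limma adjusted p = 2.4e-06), and the scavenger receptor Stab1, whose libraries could not be separated, by 0.69 ± 0.10. Purine and lysophospholipid receptors showed 10 falls and 5 rises of 21 (median -0.35). P2ry1 rose by 2.20 ± 0.15, and Lpar6 and the sphingosine 1-phosphate receptor S1pr1 fell by 1.90 ± 0.08 and 1.73 ± 0.13. Eicosanoid enzymes and receptors showed 9 falls and 6 rises of 20 (median -0.18), with the prostacyclin receptor Ptgir at 1.49 ± 0.13 and the lipoxygenase Alox5 at -0.89 ± 0.13.

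Lipid genes of export and of synthesis had medians of opposite sign. Cholesterol efflux and LXR target genes gave 9 falls and 2 rises of 15 (median -0.42). Nr1h3, which encodes LXRalpha, fell by 0.94 ± 0.17, while the second exporter Abcg1 went the other way from Abca1, from 138 and 124 CPM to 248.6 and 244.3 CPM (0.91 ± 0.09, limma adjusted p = 1.8e-07). Genes for sterol and fatty acid synthesis under SREBP control gave 12 rises and 1 fall of 28 (median 0.29), with Sqle at 0.97 ± 0.09, Hsd17b7 at 0.94 ± 0.14 and Fasn at 0.93 ± 0.08 and the desaturase Fads1 at -0.69 ± 0.08. Of 21 tested canonical PPARg targets 3 rose and 7 fell (median 0.01). Plin2, the lipid droplet coat protein, fell from 410 and 440 CPM to 227 and 231 CPM (-0.89 ± 0.10), Cpt1a by 0.98 ± 0.09 and Fabp4 from 14.5 and 11.7 CPM to 7.68 and 5.19 CPM (-0.94 ± 0.19), and glycerol kinase, Gyk, rose by 1.20 ± 0.14.

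Iron genes gave 9 falls and 3 rises of 17 (median -0.36). Opposite to Slc40a1, the transferrin receptor Tfrc rose from 148 and 123 CPM to 502 and 523 CPM (1.92 ± 0.10, limma adjusted p = 4.7e-11). The heme-degrading enzyme Hmox1 fell from 694 and 727 CPM to 302 and 273 CPM (-1.30 ± 0.09), and Fth1, the ferritin heavy chain, from 12148 to 7863 CPM on average, with no library values. Of 26 glycolysis genes 4 rose and 5 fell (near the 18.9% and 16.1% of all genes; median -0.03), with Slc2a1, a glucose transporter, at 0.77 ± 0.09 and Pfkfb3 at -0.72 ± 0.13. The citrate cycle list showed 7 rises and 2 falls of 24 (median 0.02), with Idh3a at 0.78 ± 0.12. The cell cycle list showed 2 rises and 5 falls of 40, both under the shares of all genes (median 0.02). In the latter both of the largest changes were in inhibitors: Cdkn1a, p21, rose from 515 and 592 CPM to 1025 and 1024 CPM (0.89 ± 0.08), and Cdkn1b, p27, fell by 0.90 ± 0.09.

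Secreted factors and matrix genes moved in both directions. Matrix remodelling genes showed 13 falls and 4 rises of 29 (median -0.28), with Thbs1, Mmp9 (-1.22 ± 0.28) and Loxl3 (-1.08 ± 0.20) falling and Fn1, fibronectin, rising from 8.25 and 13.7 CPM to 41.4 and 51.1 CPM. Growth factors and their receptors showed 6 rises and 5 falls of 17 (median -0.05). Vegfa fell from 26.1 and 20.1 CPM to 6.28 and 4.26 CPM (-1.95 ± 0.27, limma adjusted p = 1.8e-05) and Gdf15 by 1.70 ± 0.21, while Pdgfc rose by 1.82 ± 0.18 and Vegfc, at 0 in both washed-out libraries, was at least 4.43-fold higher than 3 reads in the shallower washed-out library. Clotting and plasminogen activation showed 4 rises and 6 falls of 14 (median -0.24), where the urokinase receptor Plaur fell by 1.30 ± 0.10 and urokinase itself, Plau, rose by 0.84 ± 0.07. Cell fusion and osteoclast genes showed 5 rises and 4 falls of 13 (median -0.01), with Src at 1.18 ± 0.16 and Cd44 at 1.13 ± 0.07.

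The second response was then set against the first response of knockout cells, with no library shared between the 2. First exposure called 4907 of 11208 genes by the same test (43.8%), 2382 higher (21.3%) and 2525 lower (22.5%), with 50.6% at an unadjusted p under 0.05. Of the genes higher at restimulation, 1655 were also higher at first exposure, 77.5% of the former and 69.5% of the latter, and of those lower 1489, or 81.8% and 59.0%. Opposite calls occurred in 7 genes, 6 of them higher at restimulation. Across the 11055 genes tested in both, the log2 differences correlated at r = 0.884, a description over genes, which are not independent replicates. Among 902 genes beyond 2-fold at first exposure, 769 (85.3%) changed by less at restimulation, with a median ratio of 0.773, and among 629 picked instead for a change beyond 2-fold at restimulation, 394 (62.6%) did.

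**Figure D4:**
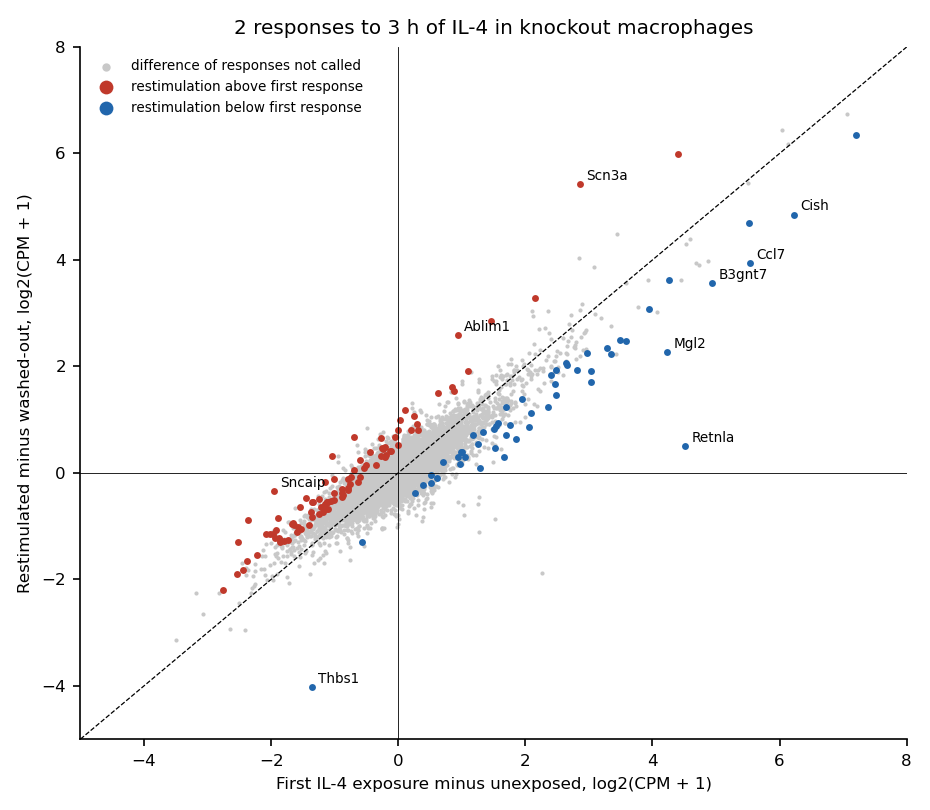
Log2 difference at restimulation (vertical) against that at first exposure (horizontal) for the 11055 genes tested in both, with genes whose restimulation response was called above (red) or below (blue) the first response and the line of equal responses dashed. The log2 differences correlate at r = 0.884, with a regression slope of 0.771, flatter than the dashed line. Kcnd3, Ear11 and Tuba8 are not drawn, as they were under 1 CPM in both groups of the first response.

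The difference between the responses passed the test in 150 of 11435 genes (1.31%), 96 of them positive (0.84%) and 54 negative (0.472%), with 1747 genes (15.3%) at an unadjusted p under 0.05. Of the positive ones 58 had fallen by more at first exposure, 16 rose by more at restimulation and 19 had opposite signs. Of the negative ones 46 rose by less at restimulation, 2 fell by more and 5 had opposite signs, and 4 of the 150 were under 1 CPM in the groups of 1 of the responses. Leaving out 1 of the 8 libraries gave 27 to 83 positive and 24 to 47 negative genes, and a fit with equal group weights 3 and 4.

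Retnla had the lowest difference, -4.01 ± 0.39 (limma adjusted p = 0.00012). It stood at 1.28 and 3.85 CPM unexposed and at 69.8 and 80.7 CPM after first exposure, a log2 rise of 4.52, while the washed-out cells already held 2580 and 2188 CPM before the second IL-4. Mgl2, a galactose-binding lectin, was alike: 2.56 and 3.15 CPM unexposed, 70.7 and 71.2 CPM after first exposure, 49.5 and 50.2 CPM after washout and 246 and 244 CPM after restimulation (difference -1.95 ± 0.17, limma adjusted p = 8e-06). Both genes ended higher after the second exposure than after the first, from a start that was higher as well.

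Ccl7, by contrast, began from like levels, 9.40 and 9.09 CPM unexposed and 9.93 and 10.8 CPM after washout. It reached 449 and 497 CPM at first exposure and 182 and 168 CPM at restimulation (difference -1.58 ± 0.16, limma adjusted p = 5.7e-05). With equal group weights the call was lost for Ccl7 (adjusted p = 0.29). Ccl2 gave -1.12. Cd274 rose by 3.03 at first exposure and 1.71 at restimulation, a difference of -1.32.

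Cish reached similar levels in both, 176 and 174 CPM at first exposure and 213 and 219 CPM at restimulation, from 1.55 and 1.17 CPM unexposed and 6.82 and 6.199 CPM after washout (difference -1.38 ± 0.22). Socs1 gave -0.86 ± 0.19, Slc7a2 -0.81 ± 0.14, Egr2 -0.86 ± 0.12 and Nfil3 -1.11 ± 0.13. B3gnt7, a glycosyltransferase, went from 0.730 and 0.583 CPM to 48.6 and 50.9 CPM at first exposure and from 1.44 and 1.69 CPM to 27.7 and 30.9 CPM at restimulation (difference -1.38 ± 0.21). With equal group weights the limma adjusted p was 0.38 for Cish and 0.34 for B3gnt7, past the threshold for neither. Of the 8 IL-4 and STAT6 markers whose responses differed, 6 rose by less at restimulation or, for Retnla, did not pass there, and Ear11 and Tfrc had the larger difference at restimulation. With equal group weights only 3 positive and 4 negative differences passed over all genes, so these 8 calls were not all kept.

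**Figure D5:**
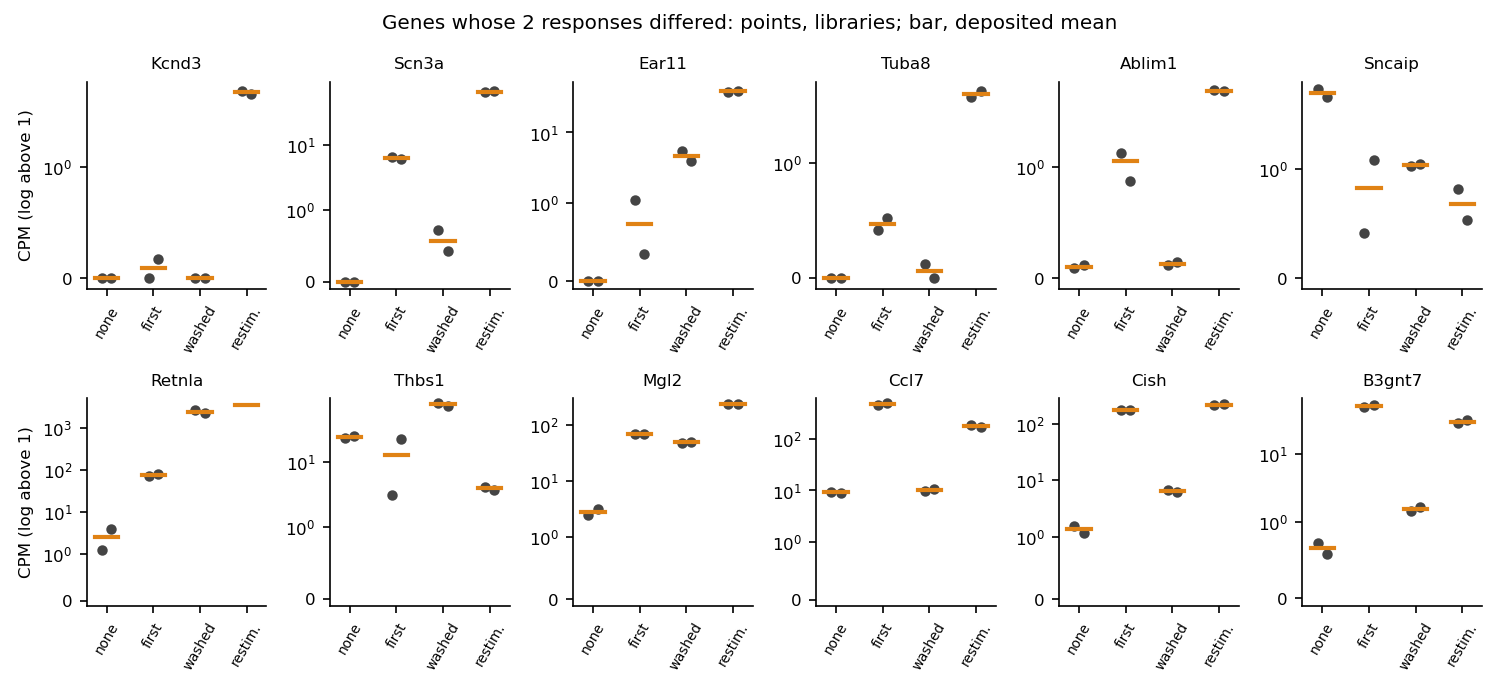
CPM in the 4 knockout groups, in the order unexposed, first exposure, washed-out and restimulated, for the 6 genes with the highest and the 6 with the lowest difference of responses (points are libraries, bars the deposited means, vertical axis log above 1 CPM and linear below). The upper genes Kcnd3, Scn3a, Ear11, Tuba8 and Ablim1 are highest after restimulation, and Retnla is already at 2384 CPM on average after washout; its restimulated libraries could not be separated.

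Of the genes with the highest differences some had few or no reads before the second exposure. Kcnd3, a voltage-gated potassium channel, had no read unexposed or after washout, 0 and 0.175 CPM at first exposure, and 5.70 and 5.32 CPM at restimulation, at least 13.04-fold above 3 reads in the shallower washed-out library. Scn3a had no read unexposed, 6.39 and 6.14 CPM at first exposure, and 64.4 and 67.3 CPM at restimulation (difference 2.56 ± 0.22, limma adjusted p = 9.1e-06). Ear11 had no read unexposed, 1.11 and 0.351 CPM at first exposure and the values given above after washout and restimulation (difference 2.05 ± 0.30, limma adjusted p = 0.0012). Kcnd3 reached 1 CPM only in the restimulated group, so the sign of its difference was fixed by the choice. By limma-voom on the read counts the difference was 5.04 for Kcnd3, -0.23 for Scn3a (adjusted p = 0.9) and -0.84 for Ear11 (adjusted p = 0.61).

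Tuba8, a tubulin, had no read unexposed, 0.417 and 0.526 CPM at first exposure and 4.42 and 5.05 CPM at restimulation (difference 1.88 ± 0.28). It too reached 1 CPM only in the restimulated group, which fixed the sign. Ablim1, an actin-binding protein, was at 1.39 and 0.877 CPM after first exposure and 5.82 and 5.72 CPM after restimulation, from 0.0913 and 0.117 CPM unexposed and 0.120 and 0.141 CPM after washout (difference 1.64 ± 0.28). Neither passed in the voom fit, at adjusted p of 0.25 and 0.20, nor with equal group weights, at 0.11 and 0.078, where Ear11 had 0.30. Sncaip fell at first exposure, from 6.48 and 5.36 CPM to 0.417 and 1.23 CPM, and was at 1.08 and 1.13 CPM after washout and 0.815 and 0.532 CPM after restimulation (difference 1.62 ± 0.38, limma adjusted p = 0.043, lost under several alternatives, 0.47 with equal group weights).

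Thbs1 fell at restimulation by 4.02 and at first exposure by 1.36, from 23.6 and 25.2 CPM to 3.06 and 23.0 CPM, where the libraries were far apart (difference -2.65 ± 0.62, limma adjusted p = 0.045). The fibroblast markers of those first-exposure libraries summed to 5.83 and 31.8 CPM, and their part was not tested. Leaving out 1 unexposed, washed-out or restimulated library gave differences between -2.73 and -2.57. That range does not cover leaving out a first-exposure library, the pair that was far apart. It therefore does not show how far the difference rests on either of them. The call was lost with equal group weights (limma adjusted p = 0.7) and with no filter (limma adjusted p = 0.16). It was also lost by limma-voom (adjusted p = 0.082) and with 0.5 CPM added before the logarithm (limma adjusted p = 0.054).

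Beside wild-type cells the knockout response could be placed only roughly. In the wild type, restimulation called 550 of 11958 genes (4.6%), 286 higher (2.39%) and 264 lower (2.21%), and the difference between the genotypes' responses passed in 0 of 12072 genes by limma (0.0%), with 1109 (9.19%) at an unadjusted p under 0.05 and the lowest adjusted p at 0.31. By limma-voom 1 gene was higher and 4 lower. The wild-type restimulated libraries stood apart: they correlated with each other at 0.897, less than with knockout restimulated libraries (0.968 and 0.930), and 1435 genes differed beyond 2-fold between them. Fibroblast markers summed to 2215 and 81.9 CPM there, against 14.5 and 15.3 CPM in washed-out wild-type cells. The median standard error of the genotype difference was 0.41 on the log2 scale.

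Values for the largest rises stood side by side as follows, and none of their differences passed. Rasgrp1 rose by 6.74 in knockout and 5.79 in wild-type cells (difference 0.95 ± 0.50, limma adjusted p = 0.59), Pdcd1lg2 by 6.43 and 5.86 (0.57 ± 0.56, adjusted p = 0.80), and Arg1 by 6.18 and 6.25. For Retnla the log2 differences were 0.51 and 0.70, neither of which passed, and for Abca1 -2.26 and -2.18. Thbs1 fell by 4.02 in the knockout and had a log2 difference of 3.36 ± 1.45 in the wild type, from 93.4 and 128 CPM to a mean of 1129 CPM that could not be separated (difference -7.37 ± 1.51, limma adjusted p = 0.31). The wild-type mean was taken in libraries of which 1 held the fibroblast markers at 2215 CPM. Counting differed between knockout and most wild-type libraries, so this cannot be told apart from genotype for the genes that share reads with copies. Leaving out the deeper washed-out wild-type library gave 79 genes higher and 355 lower, leaving out the shallower restimulated one 0 and 304, and leaving out the deeper restimulated one, which carries the fibroblast markers, 0 and 0.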

How the data were processed

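RNA of 16 samples in 8 groups of 2 was used. The submitters' processing notes name mm10, Cufflinks (2.0.2) and TopHat2 (2.0.7) without their roles. Counter and annotation are not given in the sources used here. The authors deposited a signal per gene, in CPM, as the mean of both samples of a group, and the antagonist table was not used.

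Each mean was separated into whole reads of both libraries from the low values, with 10 significant digits; a single solution was found for 113256 of 113692 values above 0 (99.62%), a likely one was taken for 146, and 290 were left as 1 observation of weight 2. Which replicate number a library has is unknown. Tests were limma 3.58.1 (R 4.3.3; lmFit, eBayes with trend) on log2(CPM + 1), 8 groups, 1 weight per group (knockout washed-out 1.088, knockout restimulated 1.8, wild-type restimulated 0.095), genes of at least 1 CPM in any column compared, Benjamini-Hochberg adjusted p under 0.05. SE values are limma's. The scripts were tested on simulated data.

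The genes, the 39 gene lists and the tests were chosen with earlier results of these data known. Named were Pparg, the 12 highest and 12 lowest ratios among called genes with separated groups and no sensitivity to counting, up to 4 called members per list, all IL-4 and STAT6 markers, and the 6 highest and 6 lowest of each difference test; a few others were named after their values were seen. Alternatives were the pseudocount (0.5 and 2 CPM), the filter (none, 5 CPM), centring, weights, groups fitted, voom, counting kind, unseparated values, genes sensitive to counting (added after seeing the data), and each library left out; a lone library then kept its group's weight and is assumed to vary like the others. A few list members are counted with their lists but not reported here by name.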

Additional observations from a re-analysis of the deposited data

Results flagged for a closer look

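The tests of the difference between the second and the first response of knockout cells (limma, adjusted p under 0.05) singled out 96 genes with a positive and 54 with a negative difference on the log2(CPM + 1) scale. The highest were Kcnd3 at 2.59, Scn3a at 2.56, Ear11 at 2.05, Tuba8 at 1.88, Ablim1 at 1.64 and Sncaip at 1.62. Kcnd3 and Tuba8 reached 1 CPM only in the restimulated group, so the sign of their difference was fixed by the choice. The lowest were Retnla at -4.01, Thbs1 at -2.65, Mgl2 at -1.95, Ccl7 at -1.58, Cish at -1.38 and B3gnt7 at -1.38.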

How the results depend on the processing

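The counts of restimulation calls, 2135 higher and 1821 lower, came to 1205 and 884 with equal group weights, and within 1.5 times under the other alternatives, with 1558 to 1801 higher and 1224 to 1535 lower when 1 library was left out. The 96 positive and 54 negative differences from the first response became 60 and 30 with no filter, 3 and 4 with equal group weights, and 260 and 123 with only the groups compared. With a term for counting the positive count was 158, and without the genes sensitive to counting (chosen after seeing the data) 154. Leaving out 1 library gave 27 to 83 and 24 to 47, lower by over 1.5 times for each library but the deeper washed-out one. For knockout minus wild type, 0 each way became 33 and 14 with equal weights, 1 and 4 by limma-voom, 1 lower with only the groups compared, and 0 to 79 and 0 to 355 with 1 library left out. The cause was not tested. Among single genes, the difference from the first response reversed by limma-voom for Scn3a (-0.23) and Ear11 (-0.84). For restimulation of the named genes 703 results kept direction and call, 5 gained and 3 lost a call; of the list medians 540 moved by less than the spread and 28 by more. No paired analysis was possible because the columns carry no replicate numbers. At 3 reads, 0.349 to 0.423 CPM, silent genes give lower bounds only.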

Other observations

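Of the genes tested, 11 had no read in either washed-out knockout library, chosen after their values were seen. They met the limit of 1 CPM only through the restimulated group, so that their direction was fixed by the choice and no test is given. Il31ra, a subunit of the IL-31 receptor, was at 6.28 CPM on average after restimulation, at least 14.9-fold above 3 reads in the shallower washed-out library. The transcription factor Gata3, known for its part in T helper cells that make IL-4, was at 2.78 CPM, at least 6.59-fold above that level, and its difference from the first response was -1.12. Abcg8, a sterol transporter, was at 2.78 CPM, the growth factor Nrg1 at 2.50 CPM, and Hhip, which binds hedgehog ligands, at 2.62 CPM. By the same choice in the other direction, 2 genes had no read after restimulation, Kcnj9, a potassium channel subunit at 1.69 CPM on average after washout, and Med12l at 1.10 CPM.

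Prps1, which makes the precursor of nucleotides and was also chosen after its values were seen, rose from 11.7 and 15.5 CPM to 143 and 139 CPM at restimulation. Its log2 difference was 3.29 there and 2.15 at first exposure (difference 1.14, limma adjusted p = 0.00065).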
